A study of Mus musculus with 35 samples.

Results

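Regulatory T cells (Tregs) are CD4+ T cells that restrain immune responses under the control of the transcription factor Foxp3. Splenic Tregs taken in the dark phase, at Zeitgeber time (ZT, hours after lights on) 16, were compared with splenic Tregs taken in the light phase, at ZT4. The 6 libraries whose labels give spleen and one of these times, 3 at ZT16 (replicates A, B and C) and 3 at ZT4 (replicates B, C and D), were chosen from 35 libraries in all. Both groups came from wild-type male C57BL/6 mice, retired breeders over 35 weeks old, under a 12:12 h light:dark cycle, with no treatment stated. Tregs were double-sorted as CD4+ CD25+ cells, 1000 cells per library, a gate that also admits activated conventional CD4 T cells. The remaining libraries cover spleen at 4 other times and visceral adipose tissue (VAT) Tregs at 6 times. Whether the replicates are different animals is not stated, and the p-values therefore cover the variation among these libraries only, which may be technical.

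Mice are active in the dark, when feeding, body temperature and circulating glucocorticoid differ from the light phase. Nearly every cell also carries a molecular clock, in which Arntl (BMAL1) and Clock drive the Per and Cry genes, whose proteins repress them, while the Nr1d and Ror nuclear receptors set Arntl and the PAR bZIP factors Dbp, Tef and Hlf carry the rhythm to output genes. Chaperones of the HSP70 and HSP90 families, with their co-chaperones, fold new and damaged proteins, and their genes are induced by the heat shock factor Hsf1 when the temperature rises. Cirbp and Rbm3 encode RNA-binding proteins that increase when the temperature falls.

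The 6 libraries held 2392717 to 5059032 counts, within the 2069319 to 6260185 of all 35. Levels are CPM (counts scaled to library size), scaled by trimmed mean of M values (TMM) over the 18 spleen libraries, and describe each gene against itself between libraries. Foxp3 averaged 662 ± 72.3 CPM at ZT16 and 550 ± 72.7 CPM at ZT4 (SD, n = 3 each), Il2ra (CD25) 415 ± 37.3 CPM at ZT16 and 363 ± 20.1 CPM at ZT4, and Ikzf2 (Helios) 850 ± 107 CPM at ZT16 and 892 ± 51 CPM at ZT4, so the defining Treg markers were present. Of 12 lists of cell type markers, none had a summed level that separated the 2 times (exact permutation test, two-sided, smallest possible p 0.1). The B cell list summed to 1909, 2360 and 2621 CPM at ZT16 and to 2074, 2003 and 1696 CPM at ZT4, nearly all of it Ighm (2235 CPM at ZT16 and 1854 CPM at ZT4), while Ms4a1, Pax5 and Blk stayed at or below 0.745 CPM on average. Other members of that list were detected, among them Cd79b (39.8 CPM at ZT16 and 33.3 CPM at ZT4), Ighd (11.3 CPM at ZT16 and 22.2 CPM at ZT4), Cr2 (4.15 CPM at ZT16 and 6.91 CPM at ZT4) and Cd79a (3.49 CPM at ZT16 and 4.44 CPM at ZT4). The plasma cell list summed to 213.1 CPM at ZT16 and 229.5 CPM at ZT4 on average, and its members did not move together. Jchain averaged 34.8 CPM at ZT16 and 0.42 CPM at ZT4, with 99.8 CPM in its highest library. Sdc1 and Mzb1 were scarce and also higher at ZT16. Xbp1 (113.9 CPM at ZT16 and 154.6 CPM at ZT4), Prdm1 (20.9 CPM at ZT16 and 28.9 CPM at ZT4), Irf4 and the scarce Tnfrsf17 were lower. The 8 neutrophil markers summed to 16.7 to 17.5 CPM at ZT16 and 6.08 to 19.1 CPM at ZT4, nearly all of it Mmp9 (16 CPM at ZT16 and 12.4 CPM at ZT4); S100a8, Ly6g, Elane and Camp were at 0 in all 6 libraries, and S100a9, Mpo and Ngp had 2, 1 and 8 counts. In these bulk samples, fewer cells of a type and less RNA per cell cannot be told apart.

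Across the 13120 genes expressed in spleen Tregs, 29 passed an adjusted p of 0.05 between ZT16 and ZT4 (0.221%), 10 of them higher at ZT16 (0.0762%) and 19 lower (0.145%), by edgeR's quasi-likelihood test over the 18 spleen libraries with Benjamini-Hochberg adjustment. The genes called higher were led by chaperones and co-chaperones, and 7 of the 10 belong to that machinery. The genes called lower changed by larger folds, with a median log2 fold change of -1.40 against 0.86 for those called higher, and came from varied functions: RNA modification, integrins, membrane traffic and cold-inducible RNA binding. At an unadjusted p of 0.05, 735 genes were higher (5.6%) and 816 lower (6.22%). Scaled by library totals instead, 7 genes were called higher and 23 lower. In 830 genes every ZT16 library lay above every ZT4 library (6.33%), and in 842 every ZT16 library lay below (6.42%). The calls rest on the spread pooled over 6 times: fitted on the 6 libraries alone, edgeR called 0 genes and 1019 passed an unadjusted p of 0.05. Without replicate C of ZT4 no gene was called either, with 1121 at an unadjusted p of 0.05, whereas without replicate A of ZT16 the count was 444.

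The called chaperone genes were higher in all 3 ZT16 libraries than in any ZT4 library. Hsp90ab1 (chromosome 17, 45567775 to 45573271), the constitutive cytosolic HSP90, had 2501, 3811 and 3473 CPM at ZT16 and 1876, 1553 and 1856 CPM at ZT4. Its log2 fold change was 0.89 ± 0.13 (SE; edgeR adjusted p = 0.0022), a 1.85-fold difference. Hspa8 (chromosome 9, 40800984 to 40810087), the constitutive HSP70 known as HSC70, had 1214, 1940 and 2023 CPM at ZT16 and 901, 644 and 881 CPM at ZT4. Its log2 fold change was 1.09 ± 0.16 (edgeR adjusted p = 0.0041). For both genes the lowest ZT16 library was replicate A, and the groups did not overlap. Both have many processed pseudogenes, and how reads matching several places were counted is not given in the sources used here, so their levels carry that uncertainty.

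The co-chaperones that work with these 2 proteins followed the same pattern. St13 (chromosome 15, 81363669 to 81400077), which binds and stabilises HSC70, had 297, 299 and 344 CPM at ZT16 and 183, 186 and 196 CPM at ZT4. Its log2 fold change was 0.74 ± 0.12 (edgeR adjusted p = 0.0080), and both groups were tight. Stip1, the adaptor HOP that passes clients between HSP70 and HSP90, had 224, 340 and 368 CPM at ZT16 and 179, 135 and 166 CPM at ZT4 (log2 fold change 0.96 ± 0.19, edgeR adjusted p = 0.034). Fkbp4, an HSP90 co-chaperone of steroid hormone receptors, had 293, 415 and 448 CPM at ZT16 and 258, 172 and 204 CPM at ZT4 (log2 fold change 0.87 ± 0.18, edgeR adjusted p = 0.034). The ZT16 libraries of these genes were spread more widely than the ZT4 libraries, and replicate A was again the lowest at ZT16. Dnaja1, a J-domain partner of HSC70, had 194, 214 and 366 CPM at ZT16 and 129, 127 and 174 CPM at ZT4 (log2 fold change 0.86 ± 0.17, edgeR adjusted p = 0.027). Chordc1, an HSP90-binding protein, had 171, 213 and 248 CPM at ZT16 and 118, 111 and 135 CPM at ZT4 (log2 fold change 0.80 ± 0.16, edgeR adjusted p = 0.024).

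**Figure D1:**
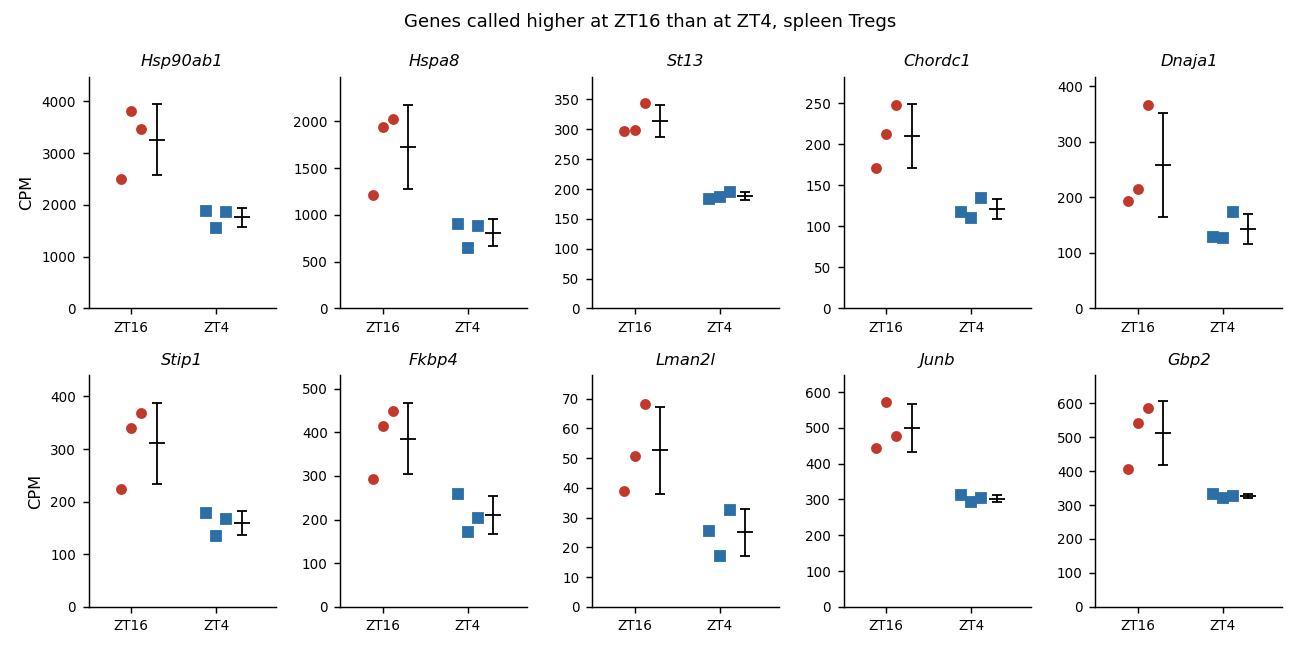
Levels (CPM, linear axes from 0) of the 10 genes called higher at ZT16 in each of the 3 ZT16 libraries (red circles, left) and the 3 ZT4 libraries (blue squares, right) of spleen Tregs; black marks are means with SD. In every panel all ZT16 libraries lie above all ZT4 libraries, as for Hsp90ab1 with 2501 to 3811 CPM at ZT16 and 1553 to 1876 CPM at ZT4.

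Over the whole heat shock list, 18 of 21 genes passed the filter on low counts; Hspa1a, Hspa1b and Hspb1 did not and were not tested. Of the 18, 6 were called higher and 0 lower; St13 was not on the list. The list's median log2 fold change was 0.74, against -0.02 over all genes tested. At an unadjusted p of 0.05, 13 of 18 were higher, against 5.6% of all genes tested. This list and those below were chosen with earlier results of these data known. Such shares therefore describe the lists and are not a test of them. Among members short of the adjusted threshold, Hsph1, an HSP110 that recharges HSP70 with nucleotide, averaged 286 ± 128 CPM at ZT16 and 108 ± 31.4 CPM at ZT4 (log2 fold change 1.41 ± 0.39, edgeR adjusted p = 0.14). Dnajb1 averaged 177 ± 80.8 CPM at ZT16 and 87.1 ± 17.3 CPM at ZT4 (edgeR adjusted p = 0.078). The stress-inducible Hsp90aa1 averaged 123 ± 36.7 CPM at ZT16 and 73.6 ± 23 CPM at ZT4, with overlapping libraries (edgeR adjusted p = 0.12). Hsf1 itself averaged 141 ± 14.8 CPM at ZT16 and 142 ± 4.67 CPM at ZT4, and Hspa4, an HSP110 family member, 286 ± 69.4 CPM at ZT16 and 310 ± 21.1 CPM at ZT4. Instead of 6 calls there were 2 with either each library's slope on exon length or the B cell marker sum as a covariate. On the 6 libraries alone there were 0, and the list's median was 0.74. There were 6 with the length trend removed as an offset, 9 with no filter and 11 by DESeq2. Leaving out 1 library gave 0 to 11 calls, with medians of 0.57 to 0.93.

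Heat shock factors bind inverted repeats of GAA. The RefSeq promoter table (GRCm38.p6, 250 bases before to 50 after a start) held 20 promoters for 14 of the 18 tested list genes. A heat shock element of 3 alternating units, read as GAA, any 2 bases, TTC, any 2 bases and GAA on either strand with overlapping matches counted, occurred in 5 of the 20 (25%), in Chordc1, Hspd1, Hspe1 and Hsph1, against 198 of all 32851 promoters (0.6%). The matches of Hspd1 and Hspe1 are the same bases read on opposite strands, so this site is counted for both genes. Stretches from 2 of the promoters with the element are shown, and they hold several overlapping matches, marked in capitals. Only matches ending before the start or within the first bases of the transcript were eligible for display. Those of Hsph1 end further into the transcript and are not shown. The Chordc1 stretch is on the plus strand at chr9:18292223-18292291. The other, on the plus strand at chr1:55088019-55088116, lies between Hspe1 and Hspd1, which encode the mitochondrial chaperonin pair and are read from it in opposite directions.
Chordc1: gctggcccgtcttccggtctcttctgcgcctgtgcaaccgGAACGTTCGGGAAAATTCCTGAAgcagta
Hspe1: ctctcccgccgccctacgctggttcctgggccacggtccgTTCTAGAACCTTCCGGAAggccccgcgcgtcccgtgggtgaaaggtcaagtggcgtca
Chordc1 was the only gene called higher whose listed promoter held the element, among 7 of the 10 with an entry (1 of 9 promoters, 11.11%). Hspe1 averaged 80.4 ± 20.4 CPM at ZT16 and 49 ± 11.3 CPM at ZT4 (edgeR adjusted p = 0.12), and Hspd1 158 ± 12.5 CPM at ZT16 and 116 ± 19.9 CPM at ZT4 (edgeR adjusted p = 0.22). Such matches describe the sequence only. None of the listed promoters of the genes called lower (19 promoters of 16 genes) held it. The E-box bound by CLOCK and BMAL1 (CACGTG) was in 3 of those 19, for Cluh, Tnfrsf8 and Zfr2 (15.79%, against 7.15% of all promoters), and in 0 of 9 of the genes called higher.

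Cirbp (chromosome 10, 80165985 to 80172786), the cold-inducible RNA-binding protein, moved the opposite way to the chaperones. It had 79.6, 81.7 and 54.4 CPM at ZT16 and 152, 169 and 133 CPM at ZT4, with no overlap. Its log2 fold change was -1.08 ± 0.20 (edgeR adjusted p = 0.018), and the call was lost without replicate C of ZT16 (adjusted p = 0.21), without replicate C of ZT4 (0.14) and on the 6 libraries alone (0.14). Many other calls were less steady. Of the 6 fits that left out 1 library, Cirbp was called in 4. Hsp90ab1 and Hspa8 were called in 5, St13 in 4, and Dnaja1 and Nsun2 in 3. Stip1, Fkbp4, Chordc1, Lman2l, Crmp1 and Itgb1 were called in 2, and Junb and Gbp2 in 1. Rbm3, the other cold-inducible member, averaged 168 ± 8.31 CPM at ZT16 and 228 ± 8.53 CPM at ZT4, with no overlap (log2 fold change -0.44 ± 0.12, edgeR adjusted p = 0.11). Of the 14 cold-inducible and SR splicing genes tested, Cirbp was the only call. Splicing factors Srsf3, Srsf5 and Srsf6 had log2 fold changes of 0.11, -0.06 and -0.05.

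The other 3 genes called higher were not chaperones. Junb (chromosome 8, 84974484 to 84978718), an AP-1 transcription factor, had 445, 574 and 477 CPM at ZT16 and 311, 292 and 305 CPM at ZT4 (log2 fold change 0.72 ± 0.15, edgeR adjusted p = 0.036). Gbp2, an interferon-inducible GTPase, had 407, 542 and 587 CPM at ZT16 and 334, 320 and 326 CPM at ZT4 (log2 fold change 0.65 ± 0.14, edgeR adjusted p = 0.036). Lman2l, a lectin of the early secretory pathway, had 38.8, 50.8 and 68.1 CPM at ZT16 and 25.4, 17 and 32.6 CPM at ZT4 (log2 fold change 1.10 ± 0.23, edgeR adjusted p = 0.036). Just short of the threshold were Tmsb4x, the actin-binding thymosin β4 (log2 fold change 0.71, edgeR adjusted p = 0.056), and H2-K2 (0.59, adjusted p = 0.060), annotated as a transcribed pseudogene of the class I family, whose members are similar in sequence.

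Among immediate early genes, which respond within minutes to receptor signals, Junb was the only call of 21 tested. Jun averaged 105 ± 50.1 CPM at ZT16 and 27.1 ± 5.43 CPM at ZT4 without overlap (log2 fold change 1.94 ± 0.50, edgeR adjusted p = 0.12). Ier2 went the other way, with 45.3 ± 21.6 CPM at ZT16 and 125 ± 27.5 CPM at ZT4 (log2 fold change -1.49 ± 0.39, edgeR adjusted p = 0.12), so the list did not move as one. Fos, Egr1 and Nr4a1 had log2 fold changes of 1.12, -0.24 and 0.37, none near the threshold. Of 16 tested genes of the glucocorticoid-responsive list, 0 passed. At an unadjusted p of 0.05, 6 were higher, against 5.6% of all genes tested. The list's median log2 fold change was 0.27. Its members included Dusp1, a MAP kinase phosphatase, at 124 ± 33.5 CPM at ZT16 and 69.9 ± 7.95 CPM at ZT4 (edgeR adjusted p = 0.071), and Tsc22d3 (GILZ), at 562 ± 178 CPM at ZT16 and 345 ± 10.5 CPM at ZT4 (edgeR adjusted p = 0.13). The classical glucocorticoid target Fkbp5 averaged 30.4 ± 3.97 CPM at ZT16 and 28.7 ± 5.68 CPM at ZT4, with overlapping libraries.

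The genes called lower ranged from moderately abundant to scarce. Nsun2 (chromosome 13, 69533746 to 69635780), a methyltransferase that makes 5-methylcytosine in RNA, had 83.3, 48.7 and 63.6 CPM at ZT16 and 233, 189 and 141 CPM at ZT4. Its log2 fold change was -1.54 ± 0.25 (edgeR adjusted p = 0.010). The groups did not overlap. Tnfrsf8 (CD30), a TNF receptor found on activated lymphocytes, was low, with 2.86, 3.27 and 5.76 CPM at ZT16 and 16.2, 19 and 14.3 CPM at ZT4 (log2 fold change -2.04 ± 0.38, edgeR adjusted p = 0.018). Crmp1 (chromosome 5, 37241940 to 37292133), a collapsin response mediator, had 15.1, 9.21 and 14.1 CPM at ZT16 and 48.9, 40.6 and 25.7 CPM at ZT4 (log2 fold change -1.60 ± 0.29, edgeR adjusted p = 0.017).

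Genes of adhesion were among those that fell. Itgb1, the β1 integrin chain, had 81.7, 44.9 and 51.2 CPM at ZT16 and 154, 153 and 103 CPM at ZT4 (log2 fold change -1.22 ± 0.24, edgeR adjusted p = 0.034). Itgav, the αV chain that can pair with it, had 28.6, 24.7 and 21.7 CPM at ZT16 and 55.8, 82.8 and 39.5 CPM at ZT4 (log2 fold change -1.27 ± 0.27, edgeR adjusted p = 0.036). In both, replicate D was the ZT4 library nearest to ZT16. Of 23 trafficking receptors tested, Itgb1 was the only call. Others on the list were Cxcr4, with 21.4 ± 6.79 CPM at ZT16 and 10.8 ± 2.83 CPM at ZT4, and Itgb7, with 665 ± 405 CPM at ZT16 and 1648 ± 540 CPM at ZT4. Their edgeR adjusted p-values were 0.23 and 0.38.

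Several genes called lower act on membranes and mitochondria. Chmp7, an ESCRT-III component, had 26.5, 11.9 and 10.9 CPM at ZT16 and 77.6, 58.6 and 33.8 CPM at ZT4 (log2 fold change -1.83, edgeR adjusted p = 0.024). Cluh, which binds mRNAs of mitochondrial proteins, had 17.6, 13.1 and 24 CPM at ZT16 and 33, 67.8 and 43.6 CPM at ZT4 (log2 fold change -1.41). The largest folds belonged to scarce transcripts: Bloc1s4, of the BLOC-1 complex of lysosome-related organelles, had 6.13, 1.78 and 2.56 CPM at ZT16 and 34, 9.57 and 8.15 CPM at ZT4. Zfr2 had 3.68, 1.19 and 1.92 CPM at ZT16 and 14.5, 11.9 and 6.92 CPM at ZT4. Kctd13, Clptm1 and Pithd1 had log2 fold changes of -1.81, -1.38 and -1.29. The edgeR adjusted p-values of these last 6 genes after Chmp7 ran from 0.024 to 0.048. Itgav, above, and Brap, Slc30a9 (a zinc transporter), Notch2 and Esyt1 (an endoplasmic reticulum tether) fall outside the naming rule and are given after their values were seen. The last 4 had log2 fold changes of -1.15, -1.23, -0.84 and -0.73.

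**Figure D2:**
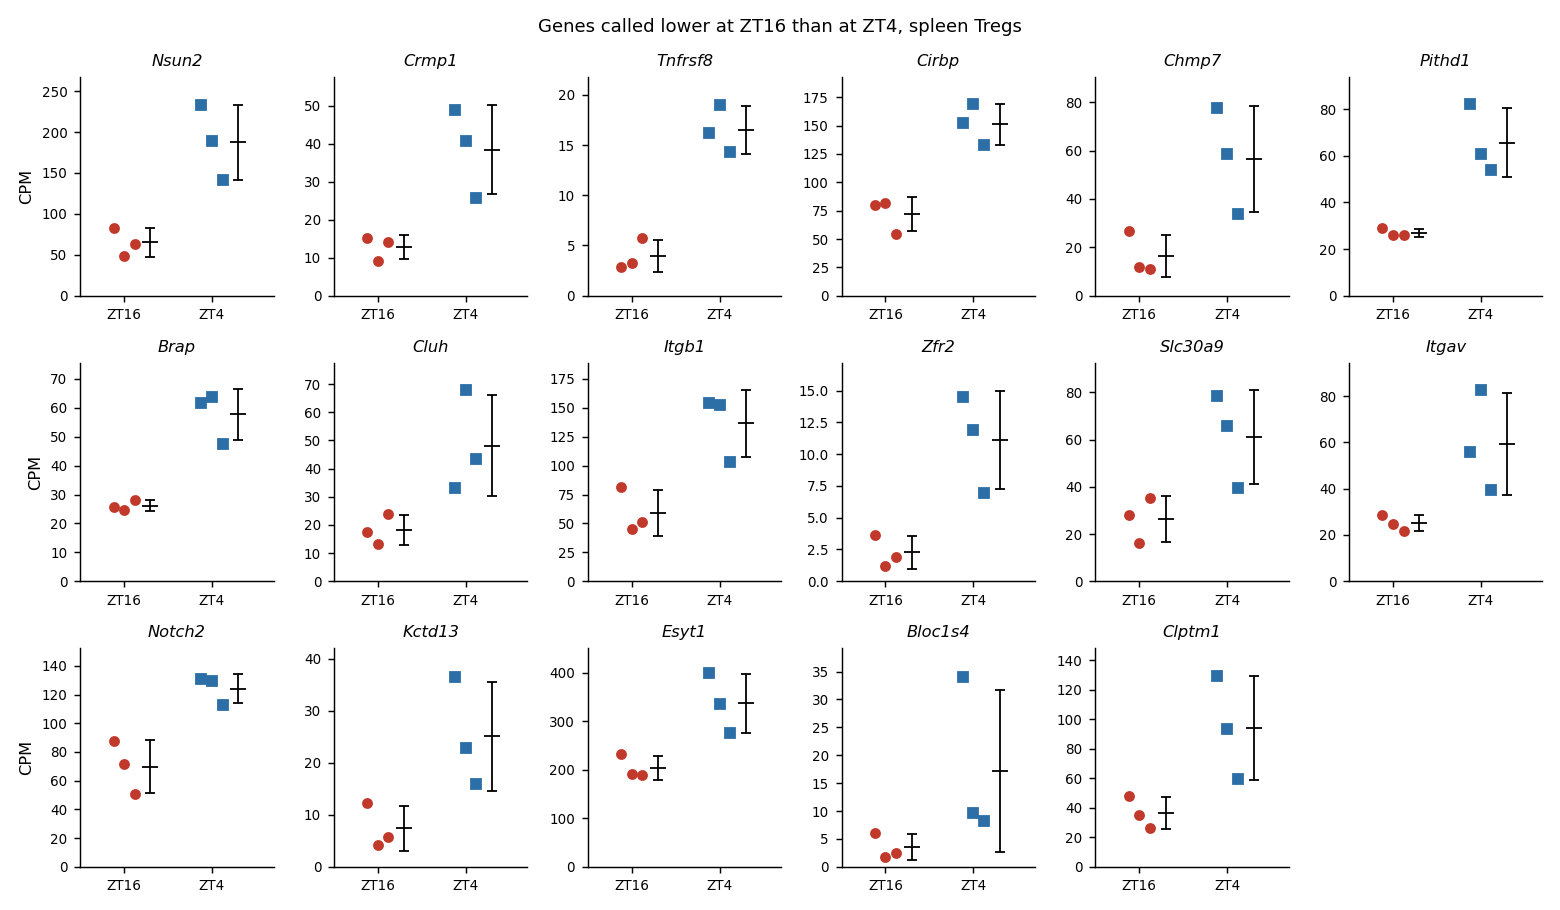
Levels (CPM, linear axes from 0) of 17 of the 19 genes called lower at ZT16, in the 3 ZT16 libraries (red circles, left) and the 3 ZT4 libraries (blue squares, right) of spleen Tregs; black marks are means with SD. No ZT16 library reaches a ZT4 library in any panel, and the gap is narrow for Slc30a9 (35.2 CPM in the highest ZT16 library, 39.5 CPM in the lowest ZT4 library).

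Genes of sterol and fatty acid synthesis are switched on by SREBP factors, those of sterol synthesis when cell cholesterol is low. Of the 26 members of this list tested (Scd1 was not tested), 1 was called lower and 0 higher. The list's median log2 fold change was -0.36, against -0.02 over all genes tested, and 24 of 26 values were below 0. At an unadjusted p of 0.05, 7 were lower, against 6.22% of all genes tested. Cyp51, a cholesterol synthesis enzyme, averaged 53.7 ± 9.87 CPM at ZT16 and 104 ± 12.1 CPM at ZT4 (log2 fold change -0.96 ± 0.22, edgeR adjusted p = 0.062). Insig1, which holds SREBP in the endoplasmic reticulum, averaged 36.5 ± 11.3 CPM at ZT16 and 61.4 ± 8.81 CPM at ZT4 (edgeR adjusted p = 0.13). Both had non-overlapping libraries. Srebf2, which encodes the SREBP factor of sterol synthesis, averaged 159 ± 31.4 CPM at ZT16 and 189 ± 21.1 CPM at ZT4, with overlap. Of 15 fatty acid oxidation genes and 17 glycolysis genes, 0 were called, with 0 and 2 higher and 1 and 0 lower at an unadjusted p of 0.05. Over all genes tested, 5.6% were higher and 6.22% lower at that p.

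No core clock gene passed the main edgeR test between ZT16 and ZT4. Of 19 listed, 17 were tested (Npas2 and Bhlhe41 were not) and 0 were called. At an unadjusted p of 0.05, 3 were lower, each without overlap between the times. Over all genes tested, 6.22% were lower at that p and 6.42% were lower without overlap. Tef had 34.7, 17.5 and 16 CPM at ZT16 and 44.6, 50.8 and 46 CPM at ZT4 (log2 fold change -1.07 ± 0.26, edgeR adjusted p = 0.071). Tef did pass with no filter (adjusted p = 0.0034), by DESeq2 (0.010), by limma-voom (0.043), with the replicate block (0.045) and without replicate A of ZT16 (0.0016), where Per3 passed too (0.046); over all alternatives its adjusted p ran up to 0.37. Per3 had 5.72, 3.86 and 1.92 CPM at ZT16 and 8.37, 13.1 and 11 CPM at ZT4 (log2 fold change -1.52 ± 0.46, edgeR adjusted p = 0.14). Dbp had 13.9, 12.8 and 7.36 CPM at ZT16 and 24.6, 18.6 and 14.7 CPM at ZT4 (log2 fold change -0.78 ± 0.37, edgeR adjusted p = 0.40). These 3 were the transcripts of the list with fully separated libraries.

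Apart from Per3, the genes of both arms of the clock loop showed overlapping libraries. Arntl had 52.7, 52.6 and 65.6 CPM at ZT16 and 62.1, 54.9 and 40.3 CPM at ZT4, and Clock had 53.5, 41.6 and 39 CPM at ZT16 and 34.2, 53.3 and 59.5 CPM at ZT4. Per1 had 27, 29.4 and 32 CPM at ZT16 and 27.4, 22.5 and 24.8 CPM at ZT4. Per2 had 4.49, 15.2 and 12.5 CPM at ZT16 and 9.13, 15 and 11.4 CPM at ZT4. Cry1 had 84.9, 26.1 and 77.7 CPM at ZT16 and 68.7, 68 and 81.1 CPM at ZT4, with replicate B of ZT16 far below the rest. Their log2 fold changes were 0.11, -0.13, 0.25, -0.14 and -0.21. Nr1d1 (REV-ERBα) was scarce, with 3.68, 2.38 and 4.80 CPM at ZT16 and 5.58, 6.25 and 3.67 CPM at ZT4, and Nr1d2 had 45.3, 20.2 and 13.4 CPM at ZT16 and 22.3, 47.1 and 52.9 CPM at ZT4. The signs of Arntl, Clock, Per2, Cry1, Cry2, Bhlhe40 and Ciart changed in at least 1 alternative fit, so they carry no direction. Those of Per2 and Cry1 changed only when 1 library was left out. Clock modifiers, such as kinases and ligases that act on clock proteins, had 0 calls among 12 tested and a median log2 fold change of -0.14.

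**Figure D3:**
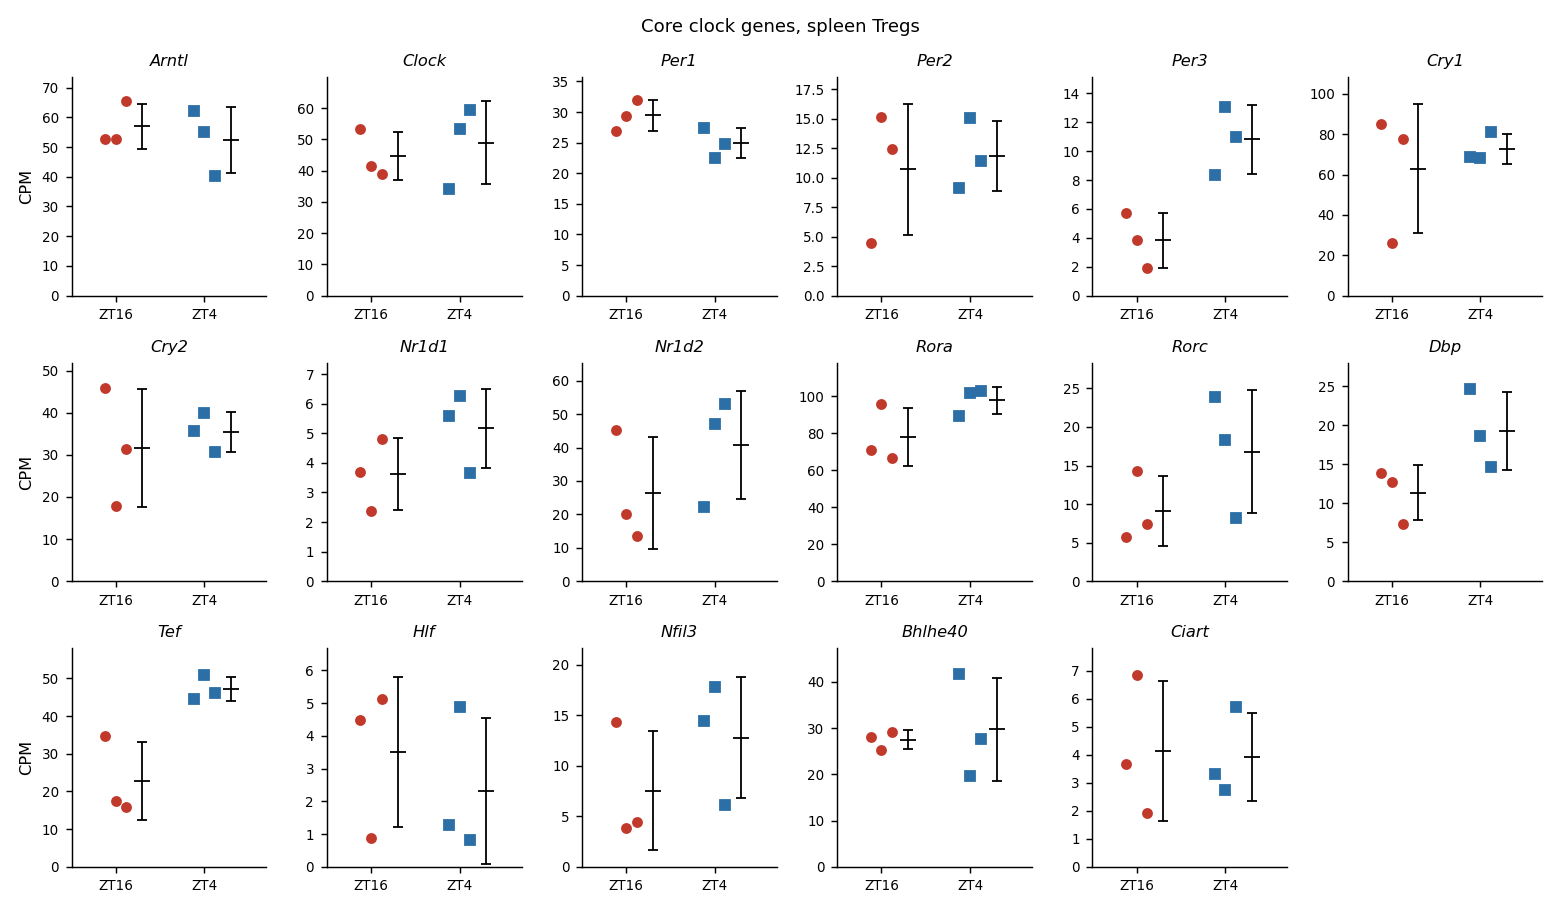
Levels (CPM, linear axes from 0) of the 17 core clock genes tested, in the 3 ZT16 libraries (red circles, left) and the 3 ZT4 libraries (blue squares, right) of spleen Tregs; black marks are means with SD. Libraries are separated by time for Tef, Per3 and Dbp, and overlap for the other genes, among them Arntl (52.6 to 65.6 CPM at ZT16 and 40.3 to 62.1 CPM at ZT4).

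Ribosomal protein genes and respiratory chain genes had values mostly above 0, with no gene called by the main test. All 24 cytosolic ribosomal protein genes tested had log2 fold changes above 0 (0.31 to 1.17, median 0.49). At an unadjusted p of 0.05, 22 were higher, against 5.6% of all genes tested. Calls among the ribosomal genes numbered 10 by DESeq2, 11 with no filter, 3 with the replicate block and 14 without replicate A of ZT16. Rplp0 averaged 2706 ± 525 CPM at ZT16 and 1892 ± 223 CPM at ZT4 (edgeR adjusted p = 0.084). Of 26 oxidative phosphorylation genes, 24 had values above 0 (median 0.37) and 10 were higher at an unadjusted p of 0.05; Cox6a1 averaged 43.4 ± 9.33 CPM at ZT16 and 25.1 ± 5.35 CPM at ZT4 (edgeR adjusted p = 0.13). Both lists hold genes of short exon length, the merged length of all annotated exons of a gene. Their medians were 1701.5 and 1966 bases, against 4093.5 bases over all genes. Exon length moved with the result: the median log2 fold change ran from 0.14 in decile 1, the shortest genes, to -0.10 in decile 10, the longest. With each library's length slope as a covariate the ribosomal median was 0.26 and 12 of 24 genes passed an unadjusted p of 0.05, while the oxidative phosphorylation median was 0.12 and 1 of 26 genes passed. Without replicate B of ZT16 the oxidative phosphorylation median was 0.19, with 2 genes at an unadjusted p of 0.05; 1 was called by DESeq2 and 2 without replicate A of ZT16. With the length trend removed as an offset, an alternative added after seeing the data, the medians were 0.47 for the ribosomal list and 0.30 for the oxidative phosphorylation list. The median length was 3650 bases for the genes called higher and 6502 bases for those called lower, and with the slope as a covariate 4 were called higher and 8 lower.

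The lists of Treg identity, activation, signalling and growth genes held 1 called gene, Gbp2. Of 18 Treg core genes 0 were called, with a median log2 fold change of 0.06; Foxp3 was 0.27 ± 0.11 (edgeR adjusted p = 0.32), Ctla4 0.22 (adjusted p = 0.52) and Lrrc32, which displays latent TGF-β, -0.31 (adjusted p = 0.71). Of 22 activation and effector genes 0 were called, with Cd69, an early activation marker, at 420 ± 93.9 CPM at ZT16 and 296 ± 52.5 CPM at ZT4 (edgeR adjusted p = 0.17). Maf averaged 55.5 ± 4.19 CPM at ZT16 and 80.4 ± 11.6 CPM at ZT4, with no overlap (edgeR adjusted p = 0.28). The interferon response list had 1 call among 24, Gbp2, and a median of 0.06. The resting and quiescence, IL-2 and STAT5, NF-kB, T cell receptor signalling, unfolded protein, amino acid and proliferation lists had 0 calls, with medians from -0.07 to 0.12. In all, 16 of the 22 lists held no called gene.

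**Figure D4:**
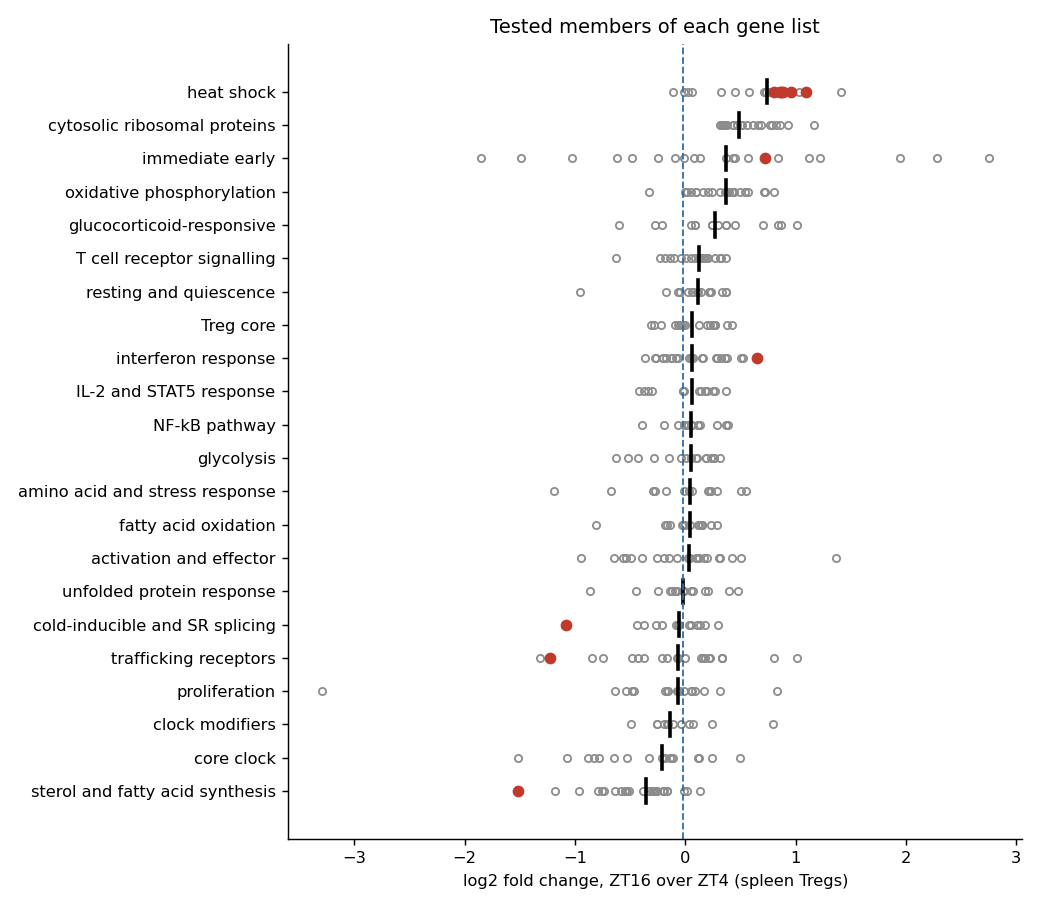
Log2 fold change of ZT16 over ZT4 in spleen Tregs (horizontal axis) for each tested member of the 22 gene lists (rows). Filled red circles are genes called by edgeR at an adjusted p of 0.05, open grey circles are other members, black bars are list medians and the dashed line is the median over all genes tested (-0.02). The heat shock list holds 6 of the called genes, with a median of 0.74, and the sterol list has the lowest median, -0.36.

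The other spleen times place these differences in the day. Of the 10 genes called higher, 5 had their highest mean at ZT16 and 4 at ZT0, and 6 had their lowest at ZT4. Hspa8 averaged 1399 CPM at ZT0, 809 at ZT4, 831 at ZT8, 1121 at ZT12, 1726 at ZT16 and 1146 at ZT20. Cirbp ran against it, with 50.5 CPM at ZT0, 151 at ZT4, 145 at ZT8, 131 at ZT12, 71.9 at ZT16 and 138 at ZT20. Of the 19 genes called lower, 15 had their highest mean at ZT8 and 4 at ZT4, and 17 had their lowest at ZT16. Nsun2 averaged 84.9 CPM at ZT0, 188 at ZT4, 282 at ZT8, 150 at ZT12, 65.2 at ZT16 and 68.5 at ZT20. These genes were chosen for their difference between ZT4 and ZT16, so their place in the day is a description.

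**Figure D5:**
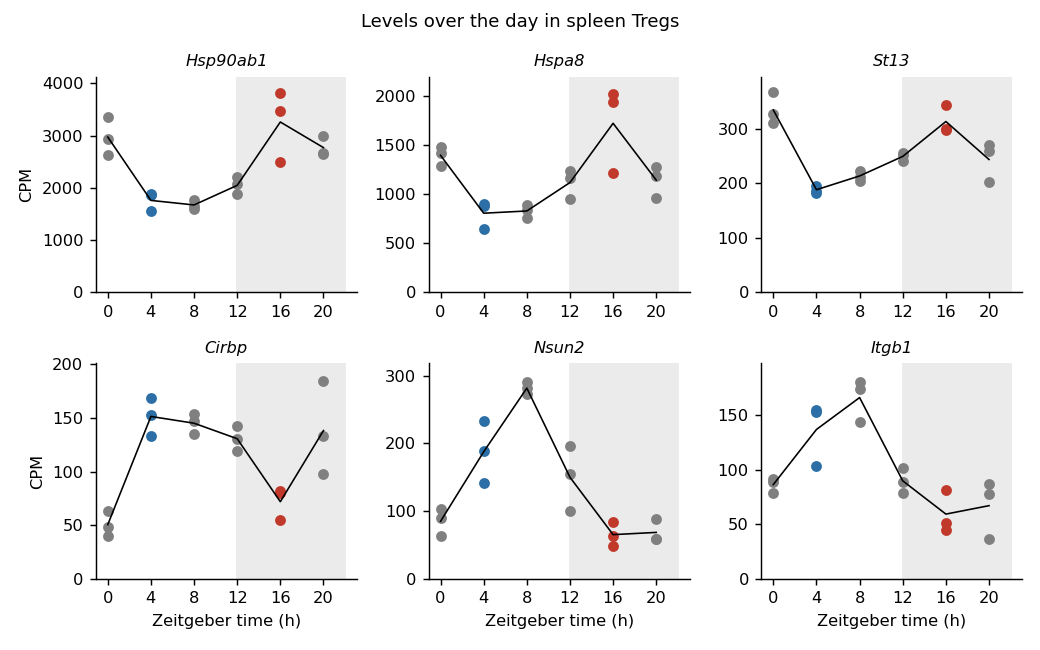
Levels (CPM, linear axes from 0) of 6 called genes in the 18 spleen libraries against Zeitgeber time in hours. Each point is a library, the line joins means of 3, ZT4 is blue and ZT16 is red. The shaded part lies within the dark phase and stops before its end. Hsp90ab1, Hspa8 and St13 are high at both ZT0 and ZT16 and low at ZT4 and ZT8, Cirbp is low at ZT0 and ZT16, and Nsun2 and Itgb1 have their highest means at ZT8.

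VAT Tregs at the same times, 3 libraries each, had 5 calls among 15910 genes (0.0314%), 2 higher and 3 lower at ZT16, in the fit over all 35 libraries. In that same fit the spleen contrast had 20 calls, 13 of them among the 29 of the spleen fit. The difference between the tissues in the ZT16 minus ZT4 contrast passed for 2 of 15910 genes (0.0126%), Crmp1 and Trbv31, a T cell receptor segment, while 1180 passed an unadjusted p of 0.05 (7.42%). Hspa8 had a log2 fold change of 0.22 in VAT, and the contrast in VAT minus that in spleen was -0.88 (edgeR adjusted p = 0.26), which did not pass. Junb was likewise -0.13 in VAT, with a difference of -0.86 (edgeR adjusted p = 0.14). The levels of both genes differed between the tissues, on the scaling of all 35 libraries. Junb averaged 17600 CPM at ZT16 and 19320 CPM at ZT4 in VAT, against 443.5 and 268.4 CPM in spleen. Hspa8 averaged 1968 CPM at ZT16 and 1686 CPM at ZT4 in VAT, against 1537 and 717.6 CPM in spleen. Cirbp was -0.88 in VAT, the same sign as in spleen. The heat shock list had a median log2 fold change of 0.07 in VAT, with 14 of 21 values above 0. Of these 21 members, 0 passed the adjusted test of the difference, while 10 passed an unadjusted p of 0.05. The other called chaperone genes had VAT log2 fold changes of 0.61 (Fkbp4), 0.55 (Stip1), 0.50 (St13), 0.24 (Hsp90ab1), 0.04 (Chordc1) and -0.13 (Dnaja1). Fkbp4 and St13 had edgeR adjusted p-values of 0.39 and 0.54 in VAT.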

How the data were processed

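RNA sequencing libraries were made from 1000 sorted cells each with oligo-dT priming, limited PCR and Nextera XT, and read on a NextSeq500, per the labels' protocols. The deposited table holds unnormalized read counts for 55011 gene symbols in 35 libraries. Per the submitters' processing notes, the authors aligned to mm10 with STAR 2.7.3a and counted with featureCounts. Annotation, strandedness and treatment of multi-mapping reads: not given in the sources used here; near-identical copies and overlapping genes are therefore uncertain. There were no molecular identifiers, so amplified copies count as reads.

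The tests used edgeR 4.0.16 (R 4.3.3). filterByExpr left 13120 genes, and libraries were scaled with TMM factors. The test was a robust quasi-likelihood fit of the 6 time groups over the 18 spleen libraries, contrast ZT16 minus ZT4, with a Benjamini-Hochberg threshold of 0.05. VAT and the difference between tissues were fitted on all 35 libraries (12 groups, 15910 genes). Positions and exon lengths are from GENCODE M21 (GRCm38), counted from 1; 12884 of the 13120 genes had a length. The steps were tested on simulated data. Libraries of a group differed from each other by more than sampling noise (chi-square per gene 5.23 to 13.9). Alternatives were other scalings, filters, DESeq2 1.42.0, limma-voom (limma 3.58.1), other sets of libraries, a replicate block, covariates and leaving out each library.

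Named genes were the core clock genes, the 12 called genes with the largest change each way that averaged at least 5 CPM in a group and did not overlap, filled by smallest p where fewer passed, and up to 4 called members of each list. The members and the 22 gene lists were chosen with earlier results of these data known. Some genes that these rules would name are not reported here.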

Additional observations from a re-analysis of the deposited data

Results flagged for a closer look

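Crmp1 was marked because its difference between ZT16 and ZT4 differed between the tissues. The ZT16 minus ZT4 log2 difference in VAT minus that in spleen was 1.94 ± 0.35 (SE; edgeR's quasi-likelihood test, adjusted p = 0.029). On the scaling of all 35 libraries it averaged 11.4 CPM at ZT16 and 34.1 CPM at ZT4 in spleen, and 199 CPM at ZT16 and 158 CPM at ZT4 in VAT. It was lower at ZT16 in 3 of 3 spleen libraries. The number of genes with such a difference was 0 to 28 when 1 library was left out, so this call depends on single libraries.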

How the results depend on the processing

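The log2 fold changes of the 29 called genes kept their sign in all 550 fits run over 19 alternatives, but their calls did not hold in all of them. Calls numbered 208 (63 higher, 145 lower) with no filter, 212 (90 and 122) with DESeq2, 47 (16 and 31) with limma-voom, 12 (4 and 8) with the length slope and 7 (3 and 4) with the B cell marker sum as a covariate, and 0 (0 and 0) on the 6 libraries alone, with 1019 genes at an unadjusted p of 0.05. All 35 libraries gave 20 (7 lower). With the length trend as an offset, added after seeing the data, there were 31 (16 higher), and 0 (0 and 0) with that offset on the 6 libraries alone, where 1098 passed an unadjusted p of 0.05. Leaving out 1 library gave 0 to 444 calls, 0 to 167 higher and 0 to 277 lower: 444 without ZT16 replicate A, 5 without ZT16 B, 8 without ZT16 C, 14 without ZT4 B, 0 without ZT4 C and 73 without ZT4 D; where 2 libraries remained, their spread was taken from the fit over all times. With the letter as a replicate block there were 78 calls (38 higher, 40 lower), 25 of them among the 29. The times share only letters B and C, whose deviations correlated at 0.15 and -0.02, and no source says what a letter marks, so the libraries are not treated as paired. The tissue difference had 2 calls, 46 with no filter, 4 with the length slope, 0 with the replicate block and 0 to 28 leaving out 1 library. Scaling by library totals gave 30 calls (7 higher, 23 lower), moved the median of all genes to -0.07, and left Junb, Lman2l and Gbp2 at an adjusted p of 0.054. Signs of clock genes that had not passed turned: with the replicate block Arntl -0.0083, Bhlhe40 0.023 and Ciart -0.035; with the length slope Clock 0.033, Cry2 0.023 and Ciart -0.098; with the B cell sum Clock 0.012 and Cry2 0.000789; leaving out 1 library Per2 -0.45 to 0.21, Cry1 -0.48 to 0.18, Cry2 -0.54 to 0.12, Ciart -0.45 to 0.48, Bhlhe40 -0.35 to 0.24, Arntl -0.037 to 0.26 and Clock -0.33 to 0.019. The cause of these changes was not tested. Scarce genes such as Hlf, Ciart and Nr1d1 rest on few counts.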
